A study of Mus musculus with 16 samples.

Results

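Traf3ip3, Trp53inp1, Dgka, Atp2a3, Tbc1d10c, Kbtbd11, Dennd2d and Ralgps2 are 8 signaling genes with high transcript levels in MC38 tumors that responded to PD-1 blockade. They were selected on the p and log2 fold change of the comparison of responder (R) with non-responder (NR) tumors, as the most significant genes higher in responders, leaving aside genes that are classical cell type markers, and were matched by symbol. All 8 are protein-coding and were found among the 53465 genes of the table and among the 18251 genes that passed the filter on low counts. The choice used the measured R and NR values, so the height of these genes in responders is given as a description and is not a test result.

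The samples were 16 tumors, each from another mouse. MC38 is a mouse colon adenocarcinoma line, and its cells had been placed under the skin of the flank of female C57BL/6 mice aged 6 to 8 weeks. Mice whose tumor measured 150 to 250 mm3 at day 16 were given 200 µg of control IgG (n = 8) or of an antibody against PD-1, aPD-1 (n = 8), at day 16 and again at day 20, and day 21 was the day of harvest. The study split the aPD-1 arm by staining for CD8 T cells into 6 NR and 2 R tumors. The response label therefore rests on T cell content, and T cell genes are no independent measure of it. RNA came from whole tumor sections, which hold tumor, stromal and immune cells together. In such bulk RNA a smaller number of cells of a type and less RNA per cell cannot be told apart.

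Signals from the antigen receptors of T and B cells pass through the second messengers diacylglycerol (DAG) and calcium. DAG recruits exchange factors that load the small GTPases Ras and Rap, and calcium released from the endoplasmic reticulum activates the phosphatase calcineurin and through it the NFAT factors. Enzymes that remove DAG, pump calcium back or switch Ras off set the strength and length of the signal. Dgka phosphorylates DAG and so removes it. Atp2a3 is SERCA3, a calcium pump of the endoplasmic reticulum. Tbc1d10c, also called carabin, inhibits calcineurin and Ras signaling. Ralgps2 is an exchange factor for Ral GTPases, Dennd2d belongs to the DENN family of Rab exchange factors, and Traf3ip3 binds the signaling adaptor TRAF3 and is found mainly in lymphocytes. Trp53inp1 is a stress protein induced by p53 that takes part in autophagy, and Kbtbd11 carries BTB and kelch domains.

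Promoters are shown because the 8 genes were high in the same tumors, and a reader may ask whether they share short sequence elements near their start sites. RefSeq promoter windows on GRCm38.p6, 250 bases before to 50 bases after a start site, were at hand for 5 of the 8 genes with 11 windows in all, of which some windows of Dgka, Dennd2d and Ralgps2 overlap. Trp53inp1, Tbc1d10c and Kbtbd11 had no entry. The 250 bases before the start are printed for 4 windows, 5′ to 3′ along the gene's strand, with matches to the ETS motifs CCGGAAG and GGAAGT and the RUNX motif TGTGGT, on either strand, in capitals. ETS and RUNX factors are well known regulators of lymphocyte genes.
Atp2a3, chr11:72960919-72961168, plus strand: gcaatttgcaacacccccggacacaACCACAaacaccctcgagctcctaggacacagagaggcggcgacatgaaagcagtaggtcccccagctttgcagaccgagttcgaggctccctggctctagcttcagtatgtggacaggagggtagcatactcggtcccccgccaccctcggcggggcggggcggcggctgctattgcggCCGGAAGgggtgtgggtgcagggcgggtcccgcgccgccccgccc
Traf3ip3, chr1:193201547-193201796, minus strand: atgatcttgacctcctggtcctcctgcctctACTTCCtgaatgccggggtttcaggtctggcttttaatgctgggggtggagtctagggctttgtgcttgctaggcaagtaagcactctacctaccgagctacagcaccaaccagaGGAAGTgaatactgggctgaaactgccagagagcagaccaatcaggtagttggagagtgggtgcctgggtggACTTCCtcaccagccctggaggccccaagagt
Dennd2d, chr3:106485790-106486039, plus strand: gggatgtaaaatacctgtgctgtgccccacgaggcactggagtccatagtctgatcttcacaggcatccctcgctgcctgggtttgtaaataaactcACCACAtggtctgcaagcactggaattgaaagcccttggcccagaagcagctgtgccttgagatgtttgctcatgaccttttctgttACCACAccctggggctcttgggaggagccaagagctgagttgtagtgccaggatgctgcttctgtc
Ralgps2, chr1:156939627-156939876, minus strand: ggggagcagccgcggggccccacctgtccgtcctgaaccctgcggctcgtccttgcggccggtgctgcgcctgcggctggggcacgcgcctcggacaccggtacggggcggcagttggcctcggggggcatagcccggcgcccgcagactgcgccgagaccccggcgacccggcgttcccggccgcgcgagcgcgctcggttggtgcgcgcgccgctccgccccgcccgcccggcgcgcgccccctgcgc

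No capitalised motif was found in more than 2 of the 5 genes. Atp2a3 held CCGGAAG 45 bases before the start, and Traf3ip3 held 3 copies of GGAAGT and no RUNX match. Dennd2d had 2 RUNX matches in the window printed, and none in its other windows. Over its 300 bases the Ralgps2 window held 51 CpG dinucleotides, against 25 in Atp2a3, 3 in this Dennd2d window and 2 in Traf3ip3. Over all 32851 promoter windows the median was 7 CpG dinucleotides.

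The search covered 8 motifs on both strands, of which the ETS motifs and the NFAT motif overlap in their letters. CCGGAAG was present in 1 of the 11 windows and in 8.86% of all windows, GGAAGT in 1 and in 23.8%, and TGTGGT in 2 and in 16.8%. For TCF and LEF factors CTTTGA was present in 1 of the 11 windows and in 16.0% of all, for NFAT GGAAAA in 1 and in 23.4%, and for IRF factors the motif GAAA, any 2 bases, GAAA in 0 and in 3.44%. The E-box CAGGTG was found in 3 of the 11 windows and in 20.2% of all, and GGGCGG, bound by KLF and SP factors, in 8 and in 35.7%. A match describes letters only, and its use in these tumors was not measured.

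Total counts per tumor ranged from 26603449 to 39948866, and the 8 genes were counted 46 to 3564 times in a tumor, which is ample for each of them. IgG replicate 1 stood apart with the lowest total and 7.60% mitochondrial counts, and in IgG replicate 3 a single entry took 20.4% of all counts, which lowered its TMM scaling factor to 0.784. NR replicates 9 and 14 also had more mitochondrial counts (6.00% and 5.73%) and lower totals than the remaining tumors of their group. Most epithelial markers of the colon were low in the IgG and NR tumors, with at most 0.942 CPM of Epcam (CPM being counts scaled to a common library size) and 1.37 CPM of Krt8. Cdh1 was present, at up to 8.12 CPM there and at 9.78 and 8.55 CPM in the responders, and Cdx2 and Vil1 failed the filter in all groups. Epcam was at 10.6 and 5.32 CPM in the responders.

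Levels are in CPM after TMM scaling. Calls required both an adjusted p below 0.05 by edgeR's quasi-likelihood test and a difference beyond 1 on the log2 scale. All 8 genes were called higher in R than in NR tumors, as were 12.5% of all genes tested, which the selection fixes. By p they ranked 2, 3, 4, 5, 6, 10, 13 and 14 among the genes higher in responders. Kbtbd11, at rank 14, was the last member and had a log2 fold change of 3.81, while Fam78a followed at rank 15, outside the selection, with 3.03. Both responders exceeded all 14 other tumors for each of the 8 genes, which held for 16.7% of all genes.

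Dgka, the kinase that removes DAG (chr10:128720134-128744855, minus strand, GRCm38 with GENCODE annotation, as for the genes that follow), was the most abundant of the 8 in responders. R replicates 15 and 16 held 97.6 and 79.8 CPM, against 7.24 to 9.80 CPM with a median of 8.83 in NR tumors and 5.40 to 10.7 CPM with a median of 6.56 in IgG tumors. The NR and IgG ranges overlapped, and the lower responder stood 7.44 times above the highest other tumor. Between R and NR tumors the difference was 10.1-fold (log2 3.34, SE 0.18). The highest of the other tumors was IgG replicate 1, the library that stood apart.

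Atp2a3, the calcium pump (chr11:72961169-72993044, plus strand), varied more between the responders. Replicate 15 held 105.4 CPM and replicate 16 only 40.5 CPM, and the other groups were at 2.22 to 3.85 CPM (median 3.10) in NR and at 1.79 to 3.53 CPM (median 2.36) in IgG tumors. NR and IgG tumors again overlapped, and the lower responder was 10.5 times above the highest of them. The R to NR difference was 23.8-fold (log2 4.57, SE 0.27), and 3.66 on the log2 scale without replicate 15.

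Tbc1d10c, the inhibitor of calcineurin and Ras (chr19:4183411-4191284, minus strand), reached 54.9 and 31.1 CPM in R replicates 15 and 16. In NR tumors it lay between 1.56 and 3.17 CPM (median 2.58), and in IgG tumors between 1.49 and 2.88 CPM (median 1.77). The R to NR difference was 17.8-fold (log2 4.16, SE 0.25). Among IgG tumors replicate 8 was the high one, and the other 7 did not exceed 2.02 CPM.

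Ralgps2, the exchange factor for Ral (chr1:156804166-156939626, minus strand), had the widest gap between the responders as a ratio, from 95.1 CPM in replicate 15 down to 30.5 CPM in replicate 16. The NR tumors were at 1.89 to 2.71 CPM (median 2.55) and the IgG tumors at 1.75 to 2.99 CPM (median 2.75). It was the only member whose mean was not higher in NR than in IgG tumors. The 25.5-fold difference between R and NR tumors (log2 4.67, SE 0.28) was the largest of the 8. Without replicate 15 it came to 3.56 on the log2 scale, below Atp2a3 (3.66), Dennd2d (3.62) and Tbc1d10c (3.62).

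Traf3ip3, the TRAF3 partner (chr1:193175453-193201703, minus strand), was at 69.0 and 41.5 CPM in R replicates 15 and 16, at 4.68 to 6.68 CPM (median 5.30) in NR and at 3.61 to 5.32 CPM (median 4.54) in IgG tumors. Its 9.95-fold difference (log2 3.31, SE 0.18) was the smallest of the 8. Dennd2d, the Rab exchange factor (chr3:106482405-106503030, plus strand), was at 40.8 and 29.7 CPM in the responders, 1.70 to 3.42 CPM (median 2.17) in NR and 1.48 to 2.75 CPM (median 1.999) in IgG tumors. It differed 15.3-fold between R and NR tumors (log2 3.94, SE 0.24). For both genes the responders stood clear of all other tumors, and NR and IgG tumors overlapped.

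Trp53inp1, the p53-induced stress protein (chr4:11156431-11174379, plus strand), was at 94.9 and 69.7 CPM in R replicates 15 and 16, at 6.04 to 9.64 CPM (median 7.58) in NR and at 4.56 to 8.84 CPM (median 7.07) in IgG tumors, a 10.9-fold difference of R from NR (log2 3.45, SE 0.19). Kbtbd11, the BTB-kelch protein (chr8:15011025-15033333, plus strand), was at 73.3 and 53.3 CPM in the responders, 3.46 to 6.02 CPM (median 4.18) in NR and 2.01 to 4.46 CPM (median 3.92) in IgG tumors. The difference was 13.98-fold (log2 3.81, SE 0.24). Replicate 15 was above replicate 16 for these 2 genes too.

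**Figure D1:**
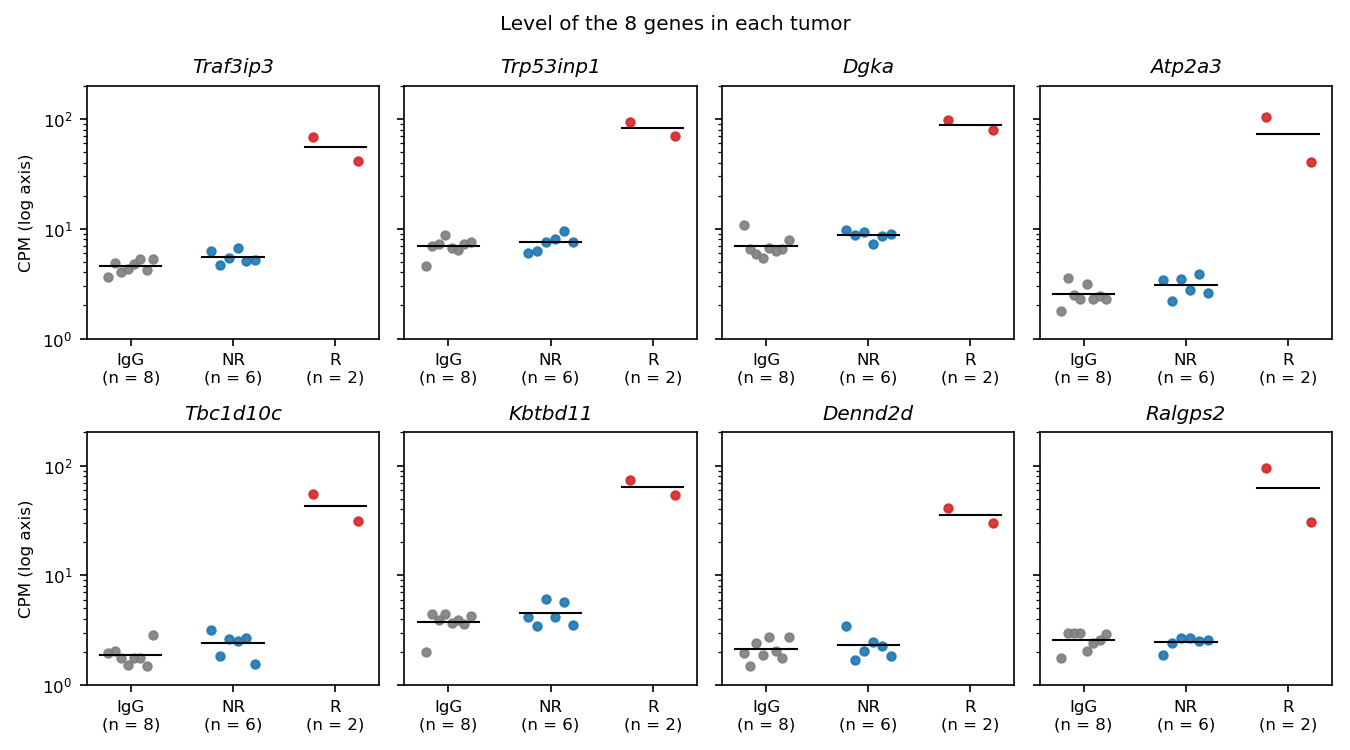
Level of each of the 8 genes in CPM (log axis) in every tumor by group, IgG control, NR and R, with 1 point per tumor and a line at the group mean. The 2 responders sit far above the other 14 tumors in every panel, and the IgG and NR points overlap.

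Per kilobase of exon, the order of the genes can be compared. In responders Dgka led with 18.6 ± 2.65 CPM per kb (SD, n = 2), followed by Atp2a3 with 13.8 ± 8.68, Trp53inp1 with 12.7 ± 2.74 and Tbc1d10c with 11.9 ± 4.64. Traf3ip3 had 9.60 ± 3.37, Kbtbd11 8.87 ± 1.97, Ralgps2 5.20 ± 3.78 and Dennd2d 5.13 ± 1.14 CPM per kb. Each neighbouring pair in this order differed by less than the larger of its SDs. In NR tumors Dgka again led, with 1.84 ± 0.182 CPM per kb (SD, n = 6), and Ralgps2 was lowest with 0.203 ± 0.0246.

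R tumors and IgG tumors share the responders with the comparison that selected the genes, so their values are set side by side only. All 8 genes were called higher in R than in IgG tumors, beside 14.3% of all genes. The log2 fold changes ran from 3.57 for Trp53inp1 to 4.85 for Atp2a3.

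Non-responders against IgG tumors is the comparison without responders. The NR tumors are those left in the aPD-1 arm after the 2 tumors with high CD8 staining were set apart, while the IgG arm was not split. A difference between them therefore cannot be read as an effect of treatment alone. The IgG tumors had no part in the selection of the genes, while the NR tumors did. No gene of 18251 was called by edgeR (0%), 694 genes had an unadjusted p below 0.05, and DESeq2 called 4 genes, none of them a member. For 7 of the 8 genes the NR mean was higher, by 0.11 for Dennd2d to 0.34 for Tbc1d10c on the log2 scale, and Ralgps2 had -0.07. The median of the 8 was 0.26, beside -0.01 for all genes, of which 48.7% had a value above 0. Dgka (0.33, SE 0.13, unadjusted p = 0.0266) and Traf3ip3 (0.28, SE 0.13, unadjusted p = 0.0463) passed 0.05 before adjustment only, and the adjusted p of the 8 genes by edgeR was 0.987 to 0.988. Their 95% intervals reached from -0.51 at the lowest to 0.75 at the highest, so each excluded a 2-fold difference in either direction. The selection by p favoured genes with little spread within groups, which in part sets the width of these intervals. Without IgG replicate 1, 3240 genes had an unadjusted p below 0.05 and 2 were called, still with no member. Without NR replicate 9 or 14 no gene was called by edgeR, and 604 and 617 genes had an unadjusted p below 0.05. Dennd2d had -0.04 without NR replicate 9. Without IgG replicate 1 the log2 difference of Dgka came to 0.45 (adjusted p = 0.107 by edgeR).

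To relate the genes to T and B cells, a T cell score was formed as the mean log2 CPM of 10 T cell markers (among them Cd3d, Cd3e, Cd3g, Cd2 and Cd5) and a B cell score as that of 10 B cell markers (among them Ms4a1, Cd79a, Cd79b, Cd22 and Pax5). None of the 8 genes is in a score. The T cell score was 3.78 and 3.76 in R replicates 15 and 16 and between -0.76 and 1.08 in the other 14 tumors. The B cell score was 6.99 and 5.05 in R replicates 15 and 16 and between -2.49 and -0.29 elsewhere. Both scores thus separated the responders as the 8 genes did, but only the B cell score differed widely between the 2 responders. Between NR tumors (0.15 ± 0.55, SD, n = 6) and IgG tumors (-0.33 ± 0.36, SD, n = 8) the T cell score differed by 0.48 (two-sided exact permutation p = 0.0739), and the B cell score by 0.72 (two-sided exact permutation p = 0.0779). These p values passed 0.05 when certain tumors were left out. For the T cell score p was 0.0163 without IgG replicate 8 and 0.0466 without NR replicate 14, and for the B cell score 0.0163 without IgG replicate 4 and 0.0404 without NR replicate 10 (two-sided exact permutation tests). Only the aPD-1 arm was split by T cell staining, so these score differences cannot be read as an effect of treatment alone.

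The 2 responders offer a contrast that the selection by group did not use directly, because they carried T and B cell genes in different proportion. The T cell markers were at nearly equal level in both, with a median ratio of replicate 15 to replicate 16 of 0.989 over 10 genes and a range of 0.796 to 1.42. Cd3e, the CD3 epsilon chain, was at 14.1 and 14.3 CPM. B cell markers were higher in replicate 15, with a median ratio of 3.999 and a range of 2.66 to 5.45 over 10 genes. Genes of cytotoxic and NK cells ran the other way, with a median of 0.523 over 8 genes. Over the 16938 tested genes with at least 20 counts in the pair the median ratio was 1.02, and the 10th and 90th percentiles were 0.724 and 1.99.

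All 8 genes were higher in replicate 15 than in replicate 16, as were 52.9% of all genes with a ratio. Dgka had the lowest ratio, 1.22 (95% exact binomial interval 1.16 to 1.29). Trp53inp1, Dennd2d and Kbtbd11 followed at 1.36, 1.37 and 1.37, with overlapping intervals. These 4 genes lay above 9 of the 10 T cell markers and below the highest, Cd2. Traf3ip3 at 1.66 and Tbc1d10c at 1.76 lay above all 10 T cell markers and above 6 of 7 markers of naive T cells. Atp2a3 at 2.602 (2.45 to 2.77) exceeded all 7 naive T cell markers. Ralgps2 at 3.12 (2.91 to 3.34) was the only member above any B cell marker, namely 1 of the 10. The other 7 genes lay below all 10 B cell markers. With 1 tumor on each side there is no test, and the intervals cover counting error only.

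**Figure D2:**
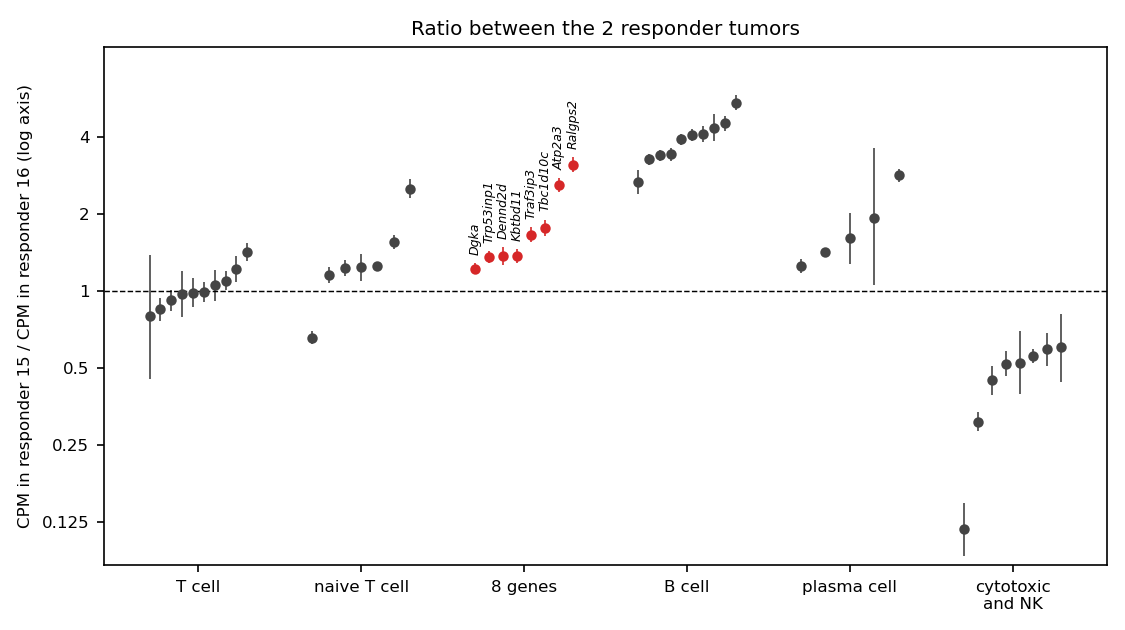
Ratio of CPM in responder replicate 15 to CPM in responder replicate 16 (log axis) for each gene of 6 groups, in ascending order within a group, with 95% exact binomial intervals for counting error and a dashed line at 1. T cell markers scatter about 1, B cell markers lie between 2.66 and 5.45, and the 8 genes, in red, spread from 1.22 for Dgka to 3.12 for Ralgps2.

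The markers of naive T cells were nearer to the 8 genes than the general T cell markers were, with a median ratio of 1.24 over 7 genes. Klf2, a factor of resting lymphocytes, had the highest of them at 2.51 and Il7r, the receptor for interleukin-7, the lowest at 0.658. Plasma cell genes had a median ratio of 1.61 over 5 genes. The ratios of endothelial genes ran from 1.57 to 4.04 (median 1.94, 5 genes), those of high endothelial venule genes from 1.16 to 6.01 (3 genes) and those of macrophage genes from 0.715 to 1.63 (8 genes). The range of the 8 genes overlapped those of T, naive T, B, plasma, endothelial, high endothelial venule and macrophage genes, and not that of cytotoxic and NK genes.

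Markers of other cells differed with response as well, beside 12.5% of all genes called higher. All 10 T cell and all 10 B cell markers were called higher in R than in NR tumors, as were 6 of 7 naive T cell, 5 of 5 plasma cell, 6 of 8 cytotoxic and NK, 3 of 3 high endothelial venule, 4 of 4 fat cell and 4 of 6 epithelial markers. The summed T cell markers were at 7.58 to 20.3 CPM in IgG, 10.4 to 29.2 in NR and 183.1 to 195.7 in R tumors. The summed B cell markers were at 2.14 to 9.50 CPM in IgG, 3.01 to 8.15 in NR and 386.1 and 1484 in R tumors. Fat cell markers summed to 0.150 to 23.7 CPM in IgG, 1.00 to 15.1 in NR and 83.9 and 490.9 in R tumors. Endothelial and dendritic cell markers were called for 3 of 5 genes each, neutrophil markers for 2 of 5, macrophage markers for 1 of 8 and fibroblast markers for 1 of 6. The part of each cell type in the level of the 8 genes was not tested.

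In the 14 tumors without responders, the 8 genes could be related to T and B cell genes away from the responders in which they were high. The NR tumors among the 14 had a part in the selection. The slope of a gene on a score, in log2 units of the gene per log2 unit of the score and with the group as a covariate, is 1 where gene and score change by the same factor. On the T cell score the slopes of the 8 genes were all positive, from 0.03 for Dgka to 0.46 for Tbc1d10c. Their median was 0.16, beside -0.03 for all genes tested, whose share of positive slopes was not counted. The slopes of Dgka and Trp53inp1 changed sign in some alternatives, given below. None passed an adjusted p of 0.05, nor did any of the 18241 genes tested (0%, edgeR), of which 1554 had an unadjusted p below 0.05. Tbc1d10c came nearest (slope 0.46, SE 0.20, unadjusted p = 0.0390, adjusted p = 0.567), followed by Kbtbd11 (0.39, SE 0.19, unadjusted p = 0.0627, adjusted p = 0.605). Single tumors moved these slopes. Tbc1d10c had 0.31 without IgG replicate 8 and 0.72 without NR replicate 11, and Dennd2d 0.08 and 0.49 without the same tumors, against 0.19 with all 14. With all 14 tumors the 95% interval of each of the 8 genes ended below 1. The selection by p favoured genes with little spread within groups, so shallow slopes and intervals below 1 were in part set by it. The T cell score spans only 1.84 log2 units over these tumors, and in simulated counts 66% of genes with a slope of 1 and 14% of genes with a slope of 0.5 were recovered, so small slopes were not detectable at this number of tumors.

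On the B cell score the slopes ran from -0.11 for Dgka to 0.16 for Trp53inp1, 6 of 8 were positive, and every adjusted p was 1 by edgeR. The median of the 8 was 0.09, beside -0.003 for all genes tested, whose share of positive slopes was not counted. Of all 18241 genes 4 were called (0.0219%), none of them a member, and 308 had an unadjusted p below 0.05. The 4 genes, named after their values were seen, were the antibody genes Ighv1-78, Igkv6-20 and Ighe and the venule gene Glycam1. Here also the 95% intervals of all 8 genes ended below 1, with the same limit from the selection.

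**Figure D3:**
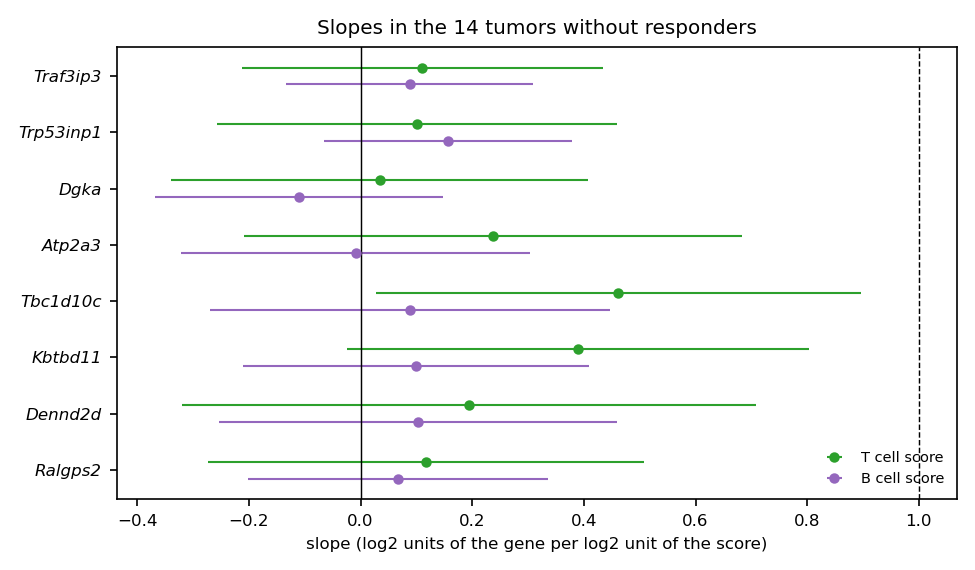
Slope of each of the 8 genes on the T cell score (green) and on the B cell score (purple) in the 14 tumors without responders, with 95% intervals, a solid line at 0 and a dashed line at 1. Only the T cell slope of Tbc1d10c has an interval that leaves out 0, and no interval reaches 1.

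Correlations over these tumors, without the group term, made 16 relations, 8 genes with each of 2 scores. With the T cell score all 8 were positive, and the share over all genes was not computed. Before any adjustment 2 of the 8 had a permutation p below 0.05 by Pearson's r and 3 by Spearman's rho. The permutation test was not run for all genes, so these counts have no share to stand beside. In the edgeR slope fit on the T cell score without the group term, 1428 of 18241 genes had an unadjusted p below 0.05. Tbc1d10c had Pearson's r = 0.745 (permutation p = 0.00147) and Spearman's rho = 0.798 (permutation p = 0.00085) over 14 tumors. Within the 8 IgG tumors r was 0.891 (exact permutation p = 0.0115) with rho = 0.667 (exact permutation p = 0.0831), and within the 6 NR tumors r was 0.515 (exact permutation p = 0.307). Leaving out the tumors farthest from the median score, IgG replicate 8 and NR replicate 11, gave r = 0.749 (permutation p = 0.00646). Adjusted over all genes, the slope of Tbc1d10c did not pass, as given above.

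Kbtbd11 had r = 0.625 (permutation p = 0.0245) and rho = 0.534 (permutation p = 0.0527) with the T cell score over the 14 tumors. This relation rested on few tumors. Without the same 2 tumors r was 0.480 (permutation p = 0.129), within the IgG tumors 0.228 (exact permutation p = 0.469), and within the 6 NR tumors 0.911 (exact permutation p = 0.00278). Traf3ip3 and Dennd2d passed by rank only, with rho = 0.613 (permutation p = 0.0228) and 0.631 (permutation p = 0.0182), against r = 0.523 (permutation p = 0.0559) and 0.342 (permutation p = 0.234). Without the 2 tumors r was 0.612 for Traf3ip3 (permutation p = 0.0336) and 0.660 for Atp2a3 (permutation p = 0.0190, from r = 0.523 and permutation p = 0.0532 with them). Within the groups r of Traf3ip3 was 0.534 in IgG tumors (exact permutation p = 0.168) and 0.135 in NR tumors (exact permutation p = 0.774), and r of Atp2a3 was 0.153 (exact permutation p = 0.697) and 0.623 (exact permutation p = 0.197).

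With the B cell score r ran from 0.0948 for Dgka to 0.504 for Traf3ip3, and no permutation p was below 0.05 for Pearson's r. By rank Traf3ip3 passed (rho = 0.565, permutation p = 0.0382), and its r was 0.647 (permutation p = 0.0214) without IgG replicate 4 and NR replicate 9, the tumors farthest from the median B cell score. Within the groups its r was 0.0912 in IgG tumors (exact permutation p = 0.841) and 0.598 in NR tumors (exact permutation p = 0.190). The number of genes past an unadjusted 0.05 by Pearson's r on the T cell score was 4 without NR replicate 9 and 1 without NR replicate 13, and on the B cell score 2 without IgG replicate 4 and 1 without NR replicate 9.

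**Figure D4:**
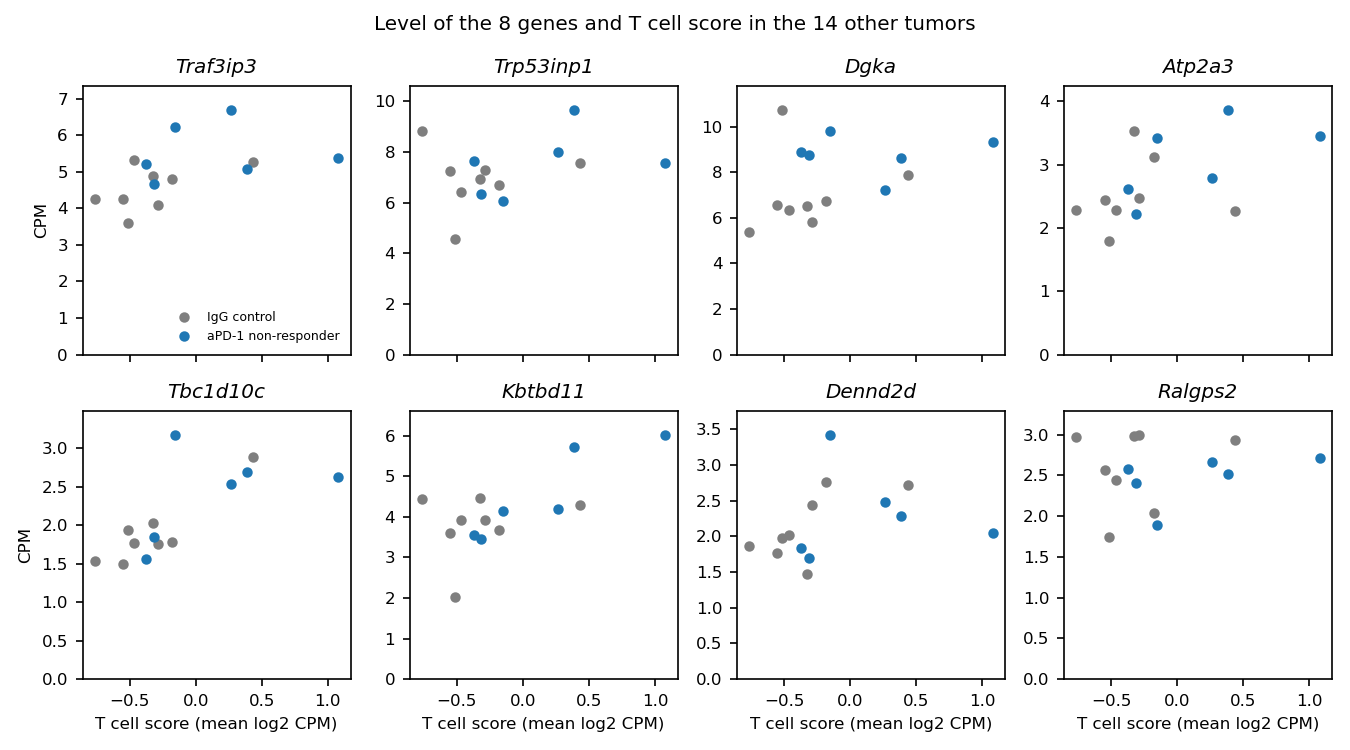
Level of each of the 8 genes in CPM against the T cell score, the mean log2 CPM of 10 T cell markers, in 8 IgG (grey) and 6 NR (blue) tumors. The correlation of log2 CPM with the score was highest for Tbc1d10c, with r = 0.745, and lowest for Ralgps2, with r = 0.178.

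Genes whose pattern over the 14 tumors was most like that of a member were taken by Pearson's r of log2 CPM among the 13612 genes whose mean reached 1 CPM, and are given as a description. The highest of so many r values over 14 tumors can be large for unrelated genes too, and no test was made. Tbc1d10c was nearest to F11r (r = 0.914), Ciita (0.897), the master regulator of MHC class II genes, and Il10ra (0.873), a chain of the interleukin-10 receptor. Traf3ip3 was nearest to Ipcef1 (0.850), Ikzf1 (0.804), the lymphoid factor Ikaros, and Adora3 (0.798). Dgka was nearest to Pilrb2 (0.938), the interferon regulatory factor Irf1 (0.922) and Pglyrp1 (0.912). For Dennd2d the list was Rab43 (0.793), the NK cell receptor Ncr1 (0.746) and Asb13 (0.735).

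The likeness of the remaining 4 genes was of similar size. Trp53inp1 went with Gm15931 (0.909), Cask (0.889) and the tumor suppressor Rb1 (0.887). Atp2a3 went with Acsf3 (0.807), Stard8 (0.793) and Tmem229b (0.782), and Kbtbd11 with Zfp709 (0.927), Rab3d (0.897) and Slc2a13 (0.882). Ralgps2 went with Egln3 (0.904), an oxygen-sensing hydroxylase, Soat1 (0.899), which esterifies cholesterol, and Gja1 (0.896), a gap junction protein.

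The DAG and calcium pathway around Dgka, Atp2a3 and Tbc1d10c was followed in 27 further genes. In R against NR tumors 9 of the 27 were called higher and 0 lower, beside 12.5% of all genes called higher and 0.663% called lower. A further 5 were higher in R tumors with an adjusted p below 0.05 by edgeR but were not called, being under the fold limit. The median log2 fold change of the 27 was 0.46, beside 0.02 for all genes and 3.87 for the 8. Among the highest were Rasgrp2 (log2 5.09), Prkcq (4.14) and Rasgrp3 (3.22), each with an adjusted p below 0.05 by edgeR. Rasgrp3 is an exchange factor activated by DAG, Rasgrp2 is an exchange factor of the same family, and Prkcq is protein kinase C theta. Rasgrp2 was at 89.7 and 48.8 CPM in the responders and at no more than 3.14 CPM elsewhere. Prkcq, which is used in T cells, was at 21.4 and 20.8 CPM in R replicates 15 and 16, while Rasgrp3 was at 66.9 and 22.8 CPM. At the other end stood the calcineurin subunit Ppp3ca (-0.22) and the calcineurin regulator Rcan1 (-0.08), neither of which passed the test. Without R replicate 15 the count was 6, and without R replicate 16 it was 13.

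Among relatives of the 8 genes, from the families of DAG kinases, calcium pumps, TBC1D10, DENN, Ral exchange and KBTBD proteins, 38 of 40 were tested, 5 were called higher in R than in NR tumors and 0 lower, a share near the 12.5% of all genes called higher. The median log2 fold change was 0.31. The 5 were Kbtbd12 (3.79), Dgki (3.13), Dennd3 (2.15), Dennd1c (1.94) and Dennd4b (1.17). Kbtbd12 and Dgki were near the limit of detection, with 0.296 and 0.769 CPM in R replicate 15, and Kbtbd12 was as high as 0.311 CPM in another tumor. The lowest relative was Atp2a1 (-0.90), the muscle calcium pump, which reached 335.4 CPM in 1 IgG tumor and did not pass the test. A further 8 relatives passed the adjusted p of 0.05 by edgeR with a difference under the fold limit, among them Dennd2a (0.95, adjusted p = 0.0351), Atp2b4 (0.84, adjusted p = 0.0418) and Dgkd (0.77, adjusted p = 0.00241). Other relatives, named like these after their values were seen, did not pass, with 0.06 for Atp2a2, 0.07 for Tbc1d10a, -0.15 for Tbc1d10b, 0.49 for Ralgps1 and 0.32 for Trp53inp2. With DESeq2, and with the stricter filter on counts, 3 relatives were called, and 1 without R replicate 15.

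Because Trp53inp1 is induced by p53, 16 genes of the p53 response were examined. Of these 2 were called higher in R than in NR tumors, the same share as the 12.5% of all genes. They were Btg2 (2.31, adjusted p = 1.4e-05 by edgeR) and Sesn1 (1.32, adjusted p = 0.0011 by edgeR), and 0 were called lower. Ccng1 and Cdkn1a, the latter the classical cell cycle inhibitor induced by p53, had 0.33 and 0.08 and did not pass the test. The lowest were the stress sensor Sesn2 (-0.74, adjusted p = 0.0382 by edgeR, under the fold limit) and Eda2r (-0.56). The median of the list was -0.05, beside 3.45 for Trp53inp1. Without R replicate 15 only 1 gene of the list was called.

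**Figure D5:**
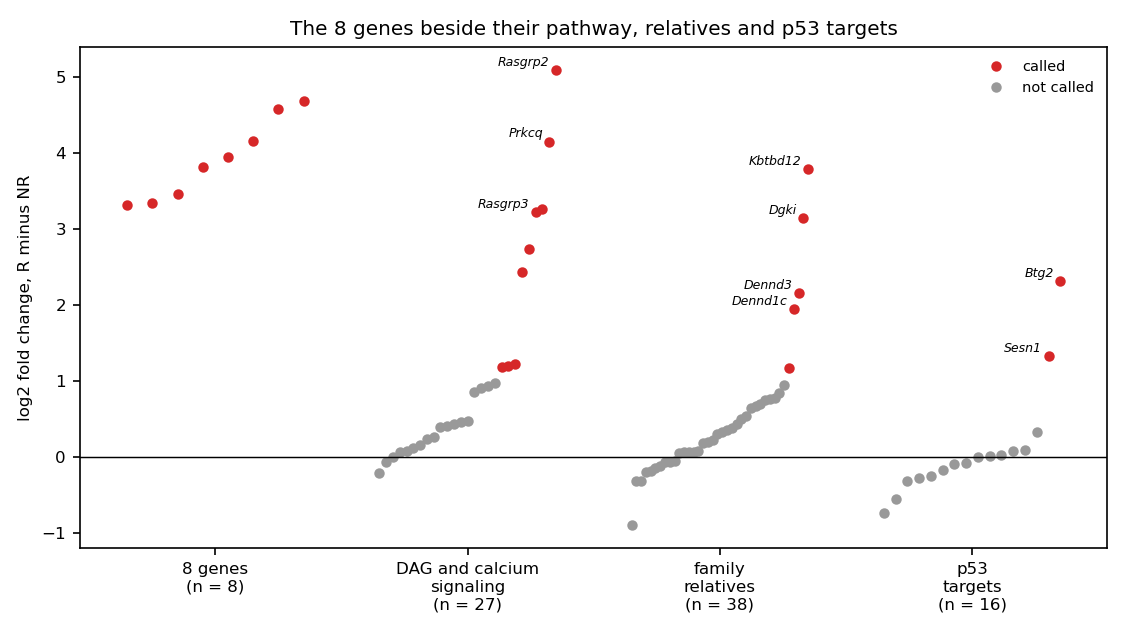
Log2 fold change of R minus NR tumors for the 8 genes, 27 genes of DAG and calcium signaling, 38 family relatives and 16 p53 targets, in ascending order within a list, with called genes in red. The 8 genes lie between 3.31 and 4.67. The median is 0.46 for DAG and calcium signaling, 0.31 for the relatives and -0.05 for the p53 targets.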

How the data were processed

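Bulk RNA-seq of 16 MC38 tumors was used. Per the labels and the study's methods the libraries were poly(A)-selected and strand-specific, and the authors aligned reads with STAR 2.6 to GRCm38 and estimated counts with RSEM 1.3.0. The deposited values are expected counts per gene, not normalized, which divide reads that fit several genes, and 7.84% were not whole. They were rounded to whole counts. Of the entries, 92 spike-in rows (at most 185 counts in a tumor) were left out, and 53274 of 53465 genes matched a GENCODE symbol.

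Differential expression was fitted in R 4.3.3 with edgeR 4.0.16 (TMM, filter on low counts, robust quasi-likelihood test) over all 16 tumors in 3 groups, with Benjamini-Hochberg adjustment over 18251 genes. Slopes on a score used the same test in 14 tumors, without the 10 genes of the score. Log2 CPM used a prior count of 2. Permutation tests were two-sided, exact for 8 or fewer tumors or for scores, otherwise with 100000 draws, and were run for the 8 genes only, since adjustment over all genes came from the slope test. DESeq2 1.42.0 and other scalings, filters, samples and prior counts were alternatives. In simulated counts of the NR to IgG comparison, over 18251 genes, 78% of 2-fold and 94% of 4-fold changes were recovered. Other steps ran in Python 3.11.15 with scipy 1.17.1, pandas 2.3.3 and numpy 2.4.6.

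The 8 genes, the marker and pathway lists and the motifs were chosen with earlier results of these data known. Named genes were the 8, up to 4 with the highest and 2 with the lowest log2 fold change of each pathway list, and the 3 most similar genes of each member, with exceptions stated. Results for some single genes of the lists are not reported here. Where a fit held 1 responder, that tumor was taken to vary as tumors of the other groups do. The labels name no batch, and p values measure the spread between these mice. Spatial data and staining were not analysed here.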

Additional observations from a re-analysis of the deposited data

Results flagged for a closer look

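Each of the 8 genes was screened in the 8 IgG and the 6 NR tumors for a tumor far from the others, by the gap to the nearest tumor as a share of the range of the group. Chance alone marks about 1 in 20 groups, and 3 of 16 were marked, all in IgG tumors. Dgka was highest in IgG replicate 1, at 10.7 CPM, with the next tumor at 7.87 CPM and a group median of 6.56 CPM. Kbtbd11 was lowest in the same tumor, at 2.01 CPM, with the next at 3.60 CPM and a median of 3.92 CPM. This tumor had the lowest total count and a mitochondrial share of 7.60%, and the part of these in the values was not tested. Tbc1d10c was highest in IgG replicate 8, at 2.88 CPM, with the next at 2.02 CPM and a median of 1.77 CPM.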

How the results depend on the processing

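All 8 genes were called higher in R than in NR and in IgG tumors under every alternative run, and none between NR and IgG tumors or on a score. The T and B cell score differences ranged from 0.29 to 0.59 and from 0.61 to 0.93 when single tumors were left out. Genes with an unadjusted correlation p below 0.05 numbered 1 to 4 for the T cell score and 0 to 2 for the B cell score. Family relatives called numbered 3 with DESeq2, 3 with at least 10 counts in at least 8 tumors, and 1 to 5 without single tumors, and p53 targets 1 to 2. Values near 0 that never passed a test changed sign. In IgG tumors alone the T cell slope of Trp53inp1 was -0.000894 and the B cell slope of Dennd2d -0.0859. Without the group term the B cell slope was 0.0379 for Dgka and 0.0923 for Atp2a3, and with the T cell score as a covariate it was 0.0380 for Atp2a3. Without single tumors the T cell slope of Dgka ranged from -0.0292 to 0.118, its B cell slope from -0.141 to 0.00618, the B cell slope of Atp2a3 from -0.107 to 0.0717, and the NR to IgG difference of Dennd2d from -0.0369 to 0.189. The cause was not tested. The ratios between the responders, recomputed on raw totals and on median-of-ratios size factors (chosen after seeing the data), stayed within their counting intervals. No paired analysis was possible because replicate numbers are not shared between groups. With 2 responders, which differ in B cell genes, the spread among responders is poorly known.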

Other observations

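Over the 14 tumors without responders the 8 genes gave 28 pairs, of which 22 had a Pearson's r of log2 CPM above 0, with a median of 0.27, beside a median of 0.00 over all pairs of 13612 genes. The highest were Trp53inp1 with Kbtbd11 (0.796) and Atp2a3 with Kbtbd11 (0.747). The lowest was Dgka with Ralgps2 (-0.607). IgG replicate 1, with 7.60% mitochondrial counts, had the most Dgka (10.7 CPM) and the least Ralgps2 (1.75 CPM) of the 14 tumors. NR replicate 9, with 6.00%, came next for both (9.80 and 1.89 CPM). IgG replicate 1 also had the least Trp53inp1 (4.56 CPM), Kbtbd11 (2.01 CPM) and Atp2a3 (1.79 CPM). The part of these libraries in the r values was not tested. The values share libraries and are a description without a test.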
